A study of Mus musculus with 6 samples.

Results

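The genes described here encode the eukaryotic translation initiation factors of families eIF1 to eIF6 and the elongation factors of families eEF1 and eEF2, together with the kinases, exchange factors, binding proteins and methyltransferases named after them. They were chosen by gene symbol alone, with the brightest probe set standing for a gene that had several, and without *Eif4ebp1*, *Eif2s3x* and *Eif2s3y*. This gave 58 genes of the 19938 tested in liver.

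Translation starts when eIF4E, eIF4G and the helicase eIF4A gather on the cap of an mRNA, while eIF3 and eIF1A sit on the small ribosomal subunit and eIF2 brings the initiator tRNA. eIF2B recharges eIF2 with GTP, and kinases that phosphorylate the alpha subunit of eIF2 block that step under stress. The eEF1 complex then delivers each aminoacyl-tRNA and eEF2 moves the ribosome along, and in liver fasting and amino acid supply act on both stages. The arrays measure mRNA, whereas phosphorylation of these factors leaves no trace in them.

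Liver RNA came from 6 female mice, 3 with a hepatocyte-specific loss of the kinase Lkb1 (labelled KO, mice B253, B304 and B305) and 3 controls (labelled WT, mice B256, B267 and B302), with 1 array per mouse. According to the study's methods, Lkb1KOlivad mutants carried floxed *Lkb1* and TTR-CreTam, a tamoxifen-inducible Cre under the transthyretin promoter of hepatocytes, and controls were littermates with floxed *Lkb1* and no Cre, all on an FVB/N background. Mice received 2 injections of 1.5 mg tamoxifen at 8 to 12 weeks of age. The methods place most studies 15 days later and in males, whereas the labels of these arrays give females, and the fasted state (18 h) is known from the paper and not from the labels. Liver cells other than hepatocytes keep *Lkb1* in this model.

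*Stk11*, which encodes Lkb1, had log2 signals of 6.52, 6.42 and 6.48 in the mutant livers and of 8.24, 8.13 and 7.96 in the control livers. The groups did not overlap (log2 fold change of -1.64, standard error 0.12, limma adjusted p = 0.00705), and the genotype labels held in all 6 mice. The 9 measured hepatocyte markers, among them *Alb* and *Apob*, had a mean log2 signal of 11.86 to 12.18 in every mouse. Array medians lay between 5.03 and 5.08. In bulk liver, fewer cells of a type and less RNA per cell cannot be told apart.

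No translation factor passed the test between mutant and control livers after adjustment. By limma with Benjamini-Hochberg adjustment over all genes, 0 of 58 were called (lowest adjusted p = 0.9997), where 1 of all genes tested, or 0.00502%, was called. At an unadjusted p under 0.05, 1 of 58 differed (1.72%), against 3.03% of all genes, and the methods' t-test found 0 of 58 at either level. The log2 fold changes, mutant minus control, ran from -0.40 for *Eif2ak4* to 0.42 for *Eef1e1*. Of the 58, 28 lay within 0.1 of 0 and 49 within 0.2, and 38 were above 0 and 20 below. Their median was 0.048, against 0.005 over all genes. The mean of the 58 factors had an SD of 0.091 between mice within a group. That SD is not an error for the difference between these medians, which was not tested.

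The arrays set bounds on the difference in bulk liver signal that could have been missed. The distance from the estimate to either end of the 95% interval had a median of 0.33 and ran from 0.24 to 0.60, which was close to the 0.32 of all genes. For 48 of 58 factors (82.8%) the whole interval lay within a 1.5-fold change either way, as it did for 82.5% of all genes. For all 58 it lay within a 2-fold change, as it did for 97.9% of all genes. The 10 factors with an interval reaching beyond 1.5-fold were *Eef1e1*, *Eif1a*, *Eif2ak2*, *Eif2ak4*, *Eif2b1*, *Eif2b3*, *Eif4e1b*, *Eif4enif1*, *Eif5a* and *Eif5a2*. For these a signal difference of that size lay inside the interval. The intervals bound the array signal of bulk liver, not a change of mRNA in hepatocytes alone. Each interval was taken for a single gene, on its brightest probe set, with no adjustment over the 58.

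**Figure D1:**
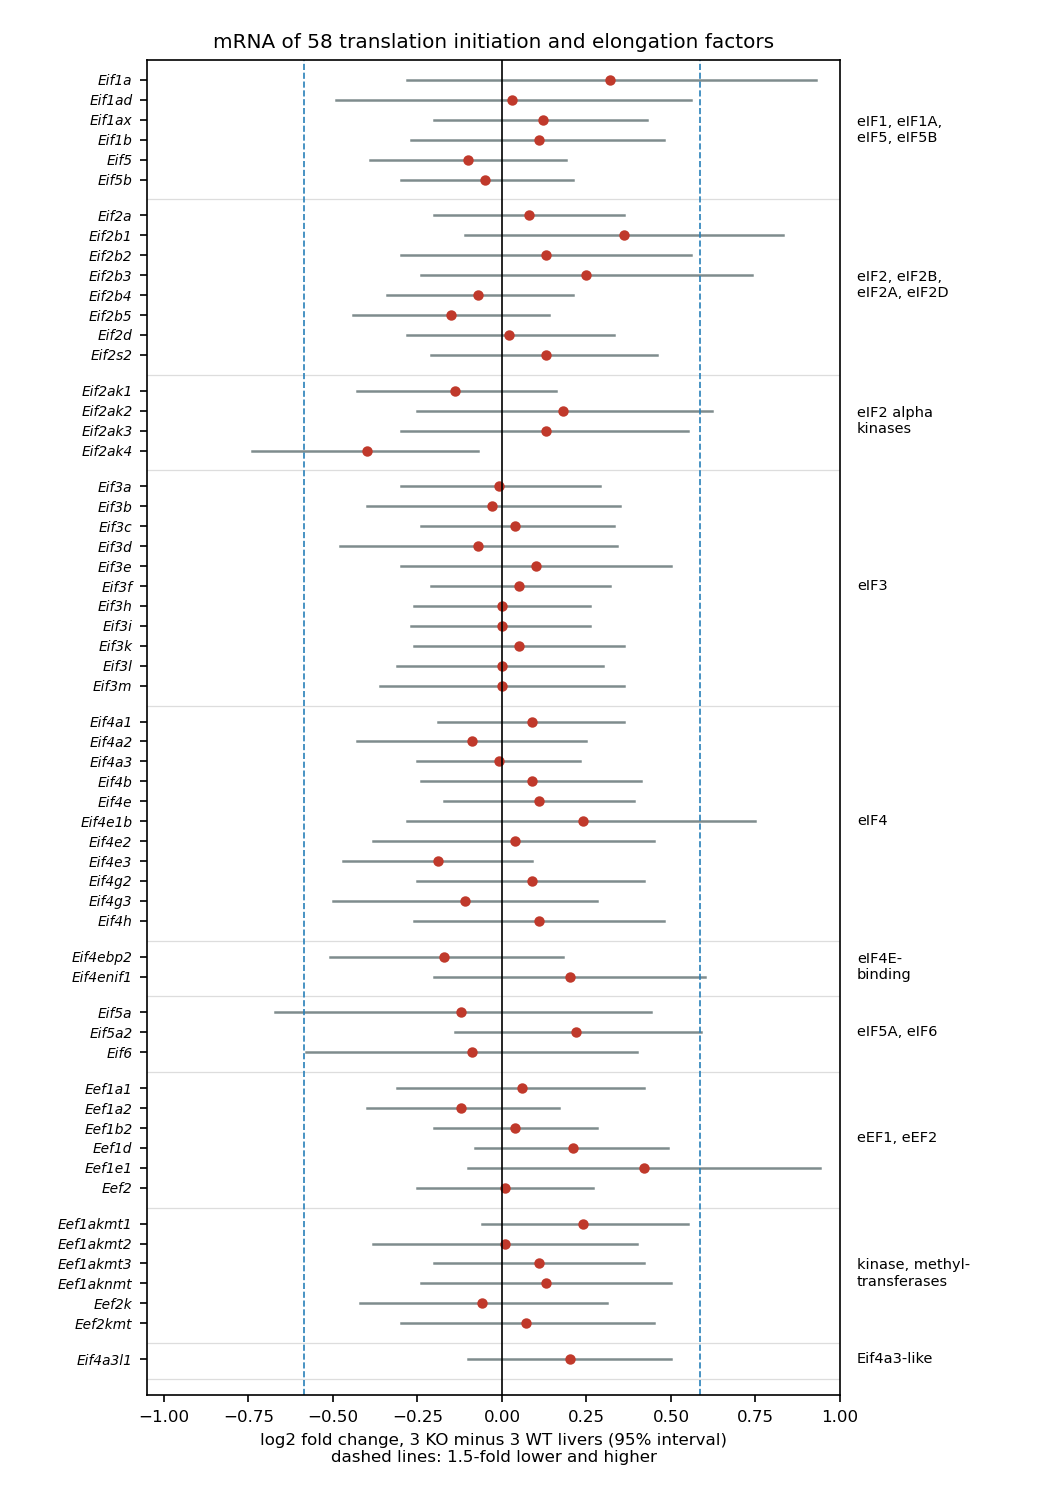
Log2 fold change (mutant minus control, horizontal axis) of each of the 58 factors, grouped by role; points are limma estimates, bars are 95% intervals, and dashed lines mark a 1.5-fold difference either way. *Eif2ak4* is the 1 factor whose interval (-0.74 to -0.07) leaves out 0, and the 11 eIF3 subunits lie between -0.07 and 0.10.

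The 4 kinases of eIF2 alpha did not move together, with log2 fold changes from -0.40 to 0.18. *Eif2ak4* encodes Gcn2, the kinase that senses uncharged tRNA when amino acids are scarce. Its log2 signal was 6.0, 6.02 and 6.06 in the mutants (B253, B304, B305) and 6.71, 6.40 and 6.18 in the controls (B256, B267, B302), an order of mice kept throughout. The mutant values sat close together below all the controls, which were spread out, with B302 nearest to the mutants. The difference was -0.40 on the log2 scale (standard error 0.15, unadjusted p = 0.0226 and adjusted p = 0.9997 from limma), or a 1.32-fold higher signal in controls. *Eif2ak4* was the 1 factor of 58 with mutants all below controls (1.72%, against 3.7% of all genes), and 0 of 58 had mutants all above controls (against 3.46%), so that groups were apart for 1 of 58, against 7.16% of all genes. The exact permutation test gave p = 0.1, the smallest that 3 against 3 mice allow. Without B256 the difference was -0.27 (limma unadjusted p = 0.0815). Without B302 it was -0.53 (limma unadjusted p = 0.00496). It was -0.55 within the mice numbered in the two-hundreds, -0.14 within those in the three-hundreds and -0.25 without both B253 and B256 (limma unadjusted p = 0.148).

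*Eif2ak1*, the heme-regulated kinase HRI, had signals of 7.83, 7.78 and 7.91 in mutants and of 8.18, 7.94 and 7.81 in controls, which overlapped (log2 fold change of -0.14, standard error 0.13). *Eif2ak2*, the kinase PKR that responds to double-stranded RNA, had 6.82, 6.48 and 6.53 in mutants against 6.28, 6.84 and 6.16 in controls (0.18, standard error 0.19). For *Eif2ak3*, which encodes the endoplasmic reticulum kinase PERK, mutant B253 stood alone at 6.49, and the other 5 mice lay between 5.73 and 5.99 (0.13, standard error 0.19).

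Among the 8 genes of eIF2, eIF2B, eIF2A and eIF2D, 0 passed the adjusted or unadjusted threshold, 6 log2 fold changes were above 0 and 2 below, and the median was 0.105 against 0.005 over all genes. *Eif2b1* and *Eif2b3*, the alpha and gamma subunits of the exchange factor, had the largest values. *Eif2b1* had log2 signals of 7.53, 7.51 and 7.73 in mutants and of 7.57, 7.40 and 6.73 in controls. The groups overlapped, and the difference (0.36, standard error 0.21, limma unadjusted p = 0.12) came with 1 low control, B302, without which it was 0.11. *Eif2b3* read 6.64, 6.73 and 6.98 in mutants against 7.0, 6.50 and 6.10 in controls, so that control B256 was the highest mouse and control B302 the lowest (0.25, standard error 0.21). *Eif2b5*, the catalytic epsilon subunit of the same complex, lay on the other side of 0, with 6.22, 6.03 and 6.03 against 6.43, 6.10 and 6.20 (-0.15, standard error 0.13). The 5 measured subunits of eIF2B thus had values from -0.15 to 0.36 and shared no direction. *Eif2s2*, the beta subunit of eIF2, gave 0.13 (standard error 0.15), and a dimmer probe set of the same gene gave -0.08.

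The 6 genes of eIF1, eIF1A, eIF5 and eIF5B, which guide start-codon choice and the joining of ribosomal subunits, had a median log2 fold change of 0.07, and 0 passed either threshold. *Eif1a* ranged most widely, with 7.78, 7.64 and 7.38 in mutants and 7.90, 7.19 and 6.73 in controls. Its 3 controls enclosed all the mutants (0.32, standard error 0.27), and near-identical copies of eIF1A can share signal on such probes. *Eif1ax* differed by 0.12 (standard error 0.14). *Eif5*, which activates the GTPase of eIF2, had 9.82, 10.13 and 10.07 in mutants against 10.21, 10.09 and 10.03 in controls (-0.10, standard error 0.13). *Eif5b*, the GTPase that joins the subunits, was tight in mutants (8.41, 8.46 and 8.43) and lay within the controls (8.59, 8.50 and 8.36).

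The 11 measured subunits of eIF3, the scaffold that binds the small ribosomal subunit, held the narrowest range of log2 fold changes among the larger role groups, from -0.07 to 0.10 with a median of 0.00. Their median SD within a group of mice was 0.15. *Eif3e* had 9.34, 9.54 and 9.55 in mutants and 9.61, 9.54 and 8.98 in controls (0.10, standard error 0.18). *Eif3f* read 9.13, 9.28 and 9.28 against 9.29, 9.18 and 9.06 (0.05, standard error 0.12). *Eif3k* read 9.32, 8.98 and 8.97 against 9.16, 8.97 and 8.99 (0.05, standard error 0.14). In each of them the groups overlapped. For *Eif3b* the signals were 8.03, 7.94 and 7.73 in mutants and 8.27, 7.76 and 7.76 in controls, with control B256 above every other mouse (-0.03, standard error 0.16). The same control was the highest mouse for 8 of the 11 subunits, and control B302 the lowest for 5.

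The 11 genes of the eIF4 group, which recruit the ribosome to the cap, had a median log2 fold change of 0.086, with 7 above 0 and 4 below, and 0 passed either threshold. *Eif4e*, the cap-binding protein, read 8.94, 8.75 and 8.93 in mutants and 8.91, 8.70 and 8.67 in controls (0.11, standard error 0.12). Its 3 probe sets did not give 1 answer, with 0.11 on the brightest, 0.07 on the next and -0.23 on the dimmest. *Eif4e3*, a cap-binding relative, had 6.17, 6.13 and 6.31 against 6.48, 6.47 and 6.23 (-0.19, standard error 0.12, limma unadjusted p = 0.156), so that B302 was the control lying among the mutants. *Eif4e1b* gave 0.24 (standard error 0.23), with mutant B305 alone at 6.22, while the other 5 mice lay between 5.27 and 5.45. *Eif4g2*, a relative of the eIF4G scaffold that lacks the eIF4E-binding site, had 10.30, 10.37 and 10.30 against 10.51, 10.23 and 9.98 (0.09, standard error 0.15). *Eif4b*, a cofactor of the helicase, had 10.18, 9.97 and 9.85 against 10.12, 9.84 and 9.79 (0.09, standard error 0.14). The 3 helicases *Eif4a1*, *Eif4a2* and *Eif4a3* stayed between -0.09 and 0.09.

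**Figure D2:**
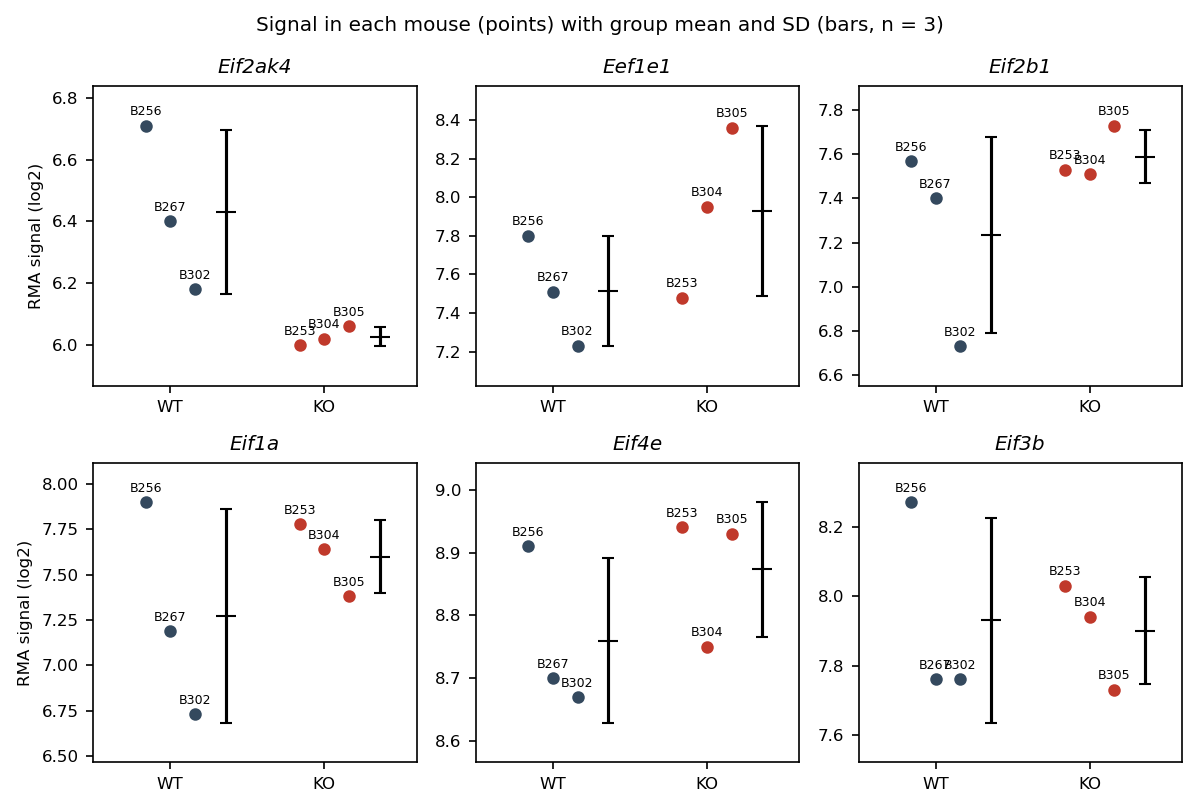
RMA log2 signal (vertical axis, a separate scale for each gene) of 6 factors in each control (WT) and mutant (KO) mouse, with the group mean and SD (n = 3) beside the points. The groups are apart for *Eif2ak4* and overlap for the other 5, and control B256 is the highest control in all 6.

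Of the proteins that bind eIF4E, *Eif4ebp2*, a repressor of cap-dependent initiation, had 7.59, 7.51 and 7.49 in mutants and 7.44, 7.67 and 7.99 in controls (-0.17, standard error 0.15). *Eif4enif1*, which shuttles eIF4E between nucleus and cytoplasm, had 6.99, 7.09 and 7.0 against 7.19, 6.83 and 6.47 (0.20, standard error 0.17). In both genes the 3 mutants lay between the lowest and the highest control. The genes of eIF5A, which carries hypusine and relieves stalled ribosomes, pointed apart: *Eif5a* had 8.06, 7.65 and 7.97 against 7.97, 7.51 and 8.55 (-0.12, standard error 0.24), and *Eif5a2* had 4.72, 4.67 and 4.16 against 4.26, 4.36 and 4.27 (0.22, standard error 0.16). *Eif6*, which keeps the large ribosomal subunit apart from the small one, had 7.28, 6.51 and 6.82 against 7.29, 6.78 and 6.82 (-0.09, standard error 0.21).

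Of the 6 elongation factor genes, 5 had a log2 fold change above 0 and 1 below, with a median of 0.05, and 0 passed either threshold. *Eef1e1*, an accessory protein of the aminoacyl-tRNA synthetase complex, had the highest value of all 58, with 7.48, 7.95 and 8.36 in mutants and 7.80, 7.51 and 7.23 in controls. Mutant B253 lay among the controls and B304 and B305 above them (0.42, standard error 0.23, limma unadjusted p = 0.103). The difference was -0.17 within the mice numbered in the two-hundreds and 0.92 within those in the three-hundreds. *Eef1d*, an exchange subunit of eEF1, had 8.71, 8.57 and 8.43 against 8.45, 8.23 and 8.42 (0.21, standard error 0.13), with B253 and B304 above all controls. *Eef1a2* had 5.78, 5.76 and 5.88 against 5.79, 5.86 and 6.12 (-0.12, standard error 0.13). The core genes varied little: *Eef1b2* read 11.32, 11.28 and 11.38 against 11.33, 11.31 and 11.23 (0.04, standard error 0.11), and *Eef2* read 10.77, 10.67 and 10.68 against 10.76, 10.56 and 10.76 (0.01, standard error 0.11). *Eef1a1*, which delivers aminoacyl-tRNA, gave 0.06 (standard error 0.16).

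Among the enzymes that modify elongation factors, *Eef2k*, the kinase that inhibits eEF2, had 5.19, 5.10 and 4.78 in mutants and 4.95, 5.34 and 4.95 in controls (-0.06, standard error 0.16). The lysine methyltransferase *Eef1akmt1* had 5.77, 5.41 and 5.66 against 5.43, 5.45 and 5.24 (0.24, standard error 0.13, limma unadjusted p = 0.105), with mutant B304 among the controls. *Eef1akmt3* and *Eef1aknmt* gave 0.11 (standard error 0.14) and 0.13 (standard error 0.16). The helicase-like *Eif4a3l1*, placed in none of these groups, had 0.20 (standard error 0.13). *Eif4a3l1* and *Eef1akmt3* were the dim end of the list: 56 of 58 factors stayed in when genes below the lower quartile of signal were left out.

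The study names 7 of these factors among phosphoproteins it places under Lkb1, from a comparison of mutant and control liver, fasted and refed. It proposes from them that Lkb1 acts on amino acid breakdown through translation. The arrays give mRNA, and of fasted liver only. Of the 7, *Eif3b*, *Eif4b*, *Eif4g2*, *Eif5b* and *Eef1d* were measured here under a gene name of their own and *Eif3g* and *Eif4g1* were not. Their 5 log2 fold changes lay between -0.05 and 0.21 with a median of 0.086, and 0 passed either threshold. Control B256 was the highest of the 6 mice for 3 of the 5, and control B302 the lowest for 3.

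For the 58 factors the median SD within a group of mice was 0.19, against a median size of the log2 fold change of 0.10 (0.17 and 0.09 over all genes). Control B256 held the highest signal of the 6 mice for 26 of 58 factors (44.8%), against 16.8% of all genes, and control B302 held the lowest for 25 (43.1%), against 20.7%. These 2 mice belong to the same group. The mean of the 58 factors, set against the control mean, was 0.14 in B256, -0.04 in B267 and -0.10 in B302, and 0.08, 0.02 and 0.05 in mutants B253, B304 and B305. All 3 mutants therefore lay between the highest and the lowest control. B302 also lay farthest along the first principal component of all genes, which held 30.5% of the variance (-0.78, where the other mice lay between -0.13 and 0.43).

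**Figure D3:**
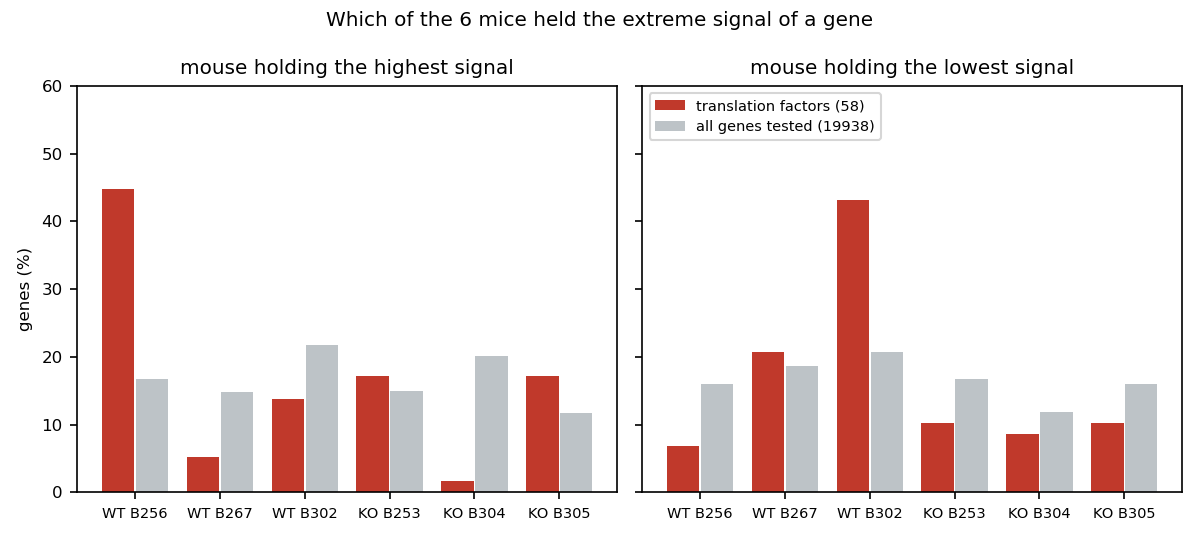
Share of genes (%, vertical axis) for which each of the 6 mice held the highest (left) or the lowest (right) signal, for the 58 factors (red) and all 19938 genes tested (grey). B256 holds the highest signal for 44.8% of factors and B302 the lowest for 43.1%, and both are controls.

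The hepatocyte markers also had B256 highest, B253 next and B302 lowest. The mean of the 9 markers, set against its control mean, was 0.19 in B256, -0.07 in B267 and -0.12 in B302, and 0.12 in B253, 0.00 in B304 and -0.09 in B305. Kupffer cell and macrophage markers (7 of 7 measured) were 0.31 in B256 and -0.48 in B302, with mutants between -0.31 and -0.01. Other cell types ran differently: the 5 neutrophil markers all had a log2 fold change above 0 (median 0.36), with B253 at 0.66, B304 at 0.39 and B305 at -0.08 against 0.11, 0.23 and -0.34 in the controls. The 8 stellate cell markers all lay below 0 (median -0.171), with mutants between -0.24 and -0.16 and controls between -0.11 and 0.07. The 7 sinusoidal endothelium markers had 5 log2 fold changes below 0 and 2 above (median -0.272). Their mean, set against its control mean, was -0.10, -0.18 and -0.18 in mutants and 0.13, -0.08 and -0.05 in controls. Biliary, T and NK cell and B cell markers had values on both sides of 0, and the 1 measured erythroid marker had -0.267. The part of cell makeup in the factors' spread was not tested. Cytosolic ribosomal protein genes (61 measured), components of the same machinery, had another pattern, with B302 at 0.11 and B267 at -0.10, and their median log2 fold change was -0.007. The 18 cytosolic aminoacyl-tRNA synthetase genes had B253 at 0.28, B256 at 0.24 and B302 at -0.16, and a median log2 fold change of 0.102.

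**Figure D4:**
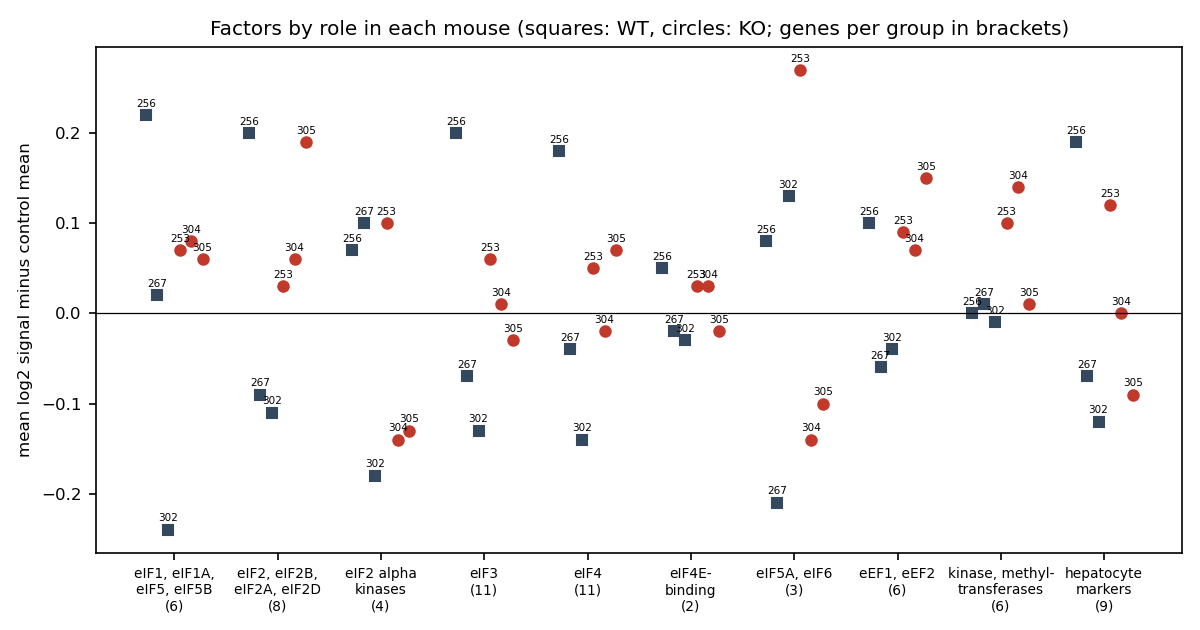
Mean log2 signal of the factors of each role, and of hepatocyte markers, in each mouse minus the control mean (vertical axis); squares are controls and circles mutants, with the mouse number above. For the 11 eIF3 subunits B256 lies at 0.20 and B302 at -0.13, and the mutants lie between them at -0.03 to 0.06.

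B302 is the only control with a number in the three-hundreds and B253 the only mutant in the two-hundreds, so the difference was also taken within each series. The median log2 fold change of the 58 factors was 0.021 in the two-hundreds and 0.134 in the three-hundreds, where the single control is B302. Without B256, *Eif1a* (0.64), *Eif2b1* (0.53), *Eif2b3* (0.48) and *Eif4enif1* (0.38) were higher at an unadjusted p under 0.05 by limma, 4 of 58 (6.9%) against 2.61% of all genes. With both B253 and B256 left out, *Eef1e1* (0.78), *Eif1a* (0.55) and *Eif2b3* (0.55) were (5.17%, against 2.27% of all genes). With the series as a block, *Eef1akmt1* (0.32) and *Eif2b1* (0.47) were higher (3.45%, against 2.95% of all genes) and *Eif2ak4* (-0.35) was lower, 3 of 58 against 5.02% of all genes in either direction. None of these passed adjustment over all genes, and without B302 the same comparison gave 0.05 for *Eif1a* and 0.03 for *Eif2b3*. Over 16 alternative settings, 23 factors kept 1 sign throughout and 35 took the other sign at least once.

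The promoters of these genes carried a feature that the choice by name did not use. Of the 58 factors, 46 had at least 1 RefSeq promoter (61 promoters, GRCm38.p6, from 250 bases before to 50 after the annotated start). The palindrome CACGTG, the E-box core that Myc and related proteins can bind and which reads the same on both strands, was present in 12 of the 46 genes (26.1%), against 9.52% of the genes tested that had a promoter. Counted by promoter this was 14 of 61 (23%), against 8.26% of the promoters of the genes tested and 7.15% of all promoters in the table. Overlapping promoters can count the same site again, as at chr11:69921446-69921469 in *Eif5a*. The factors were brighter than all genes (median log2 signal 7.9 against 5.26), and promoters of similarly bright genes were not compared. The genes were *Eif4e*, *Eif4a1*, *Eif4h*, *Eif3a*, *Eif3f*, *Eif3k*, *Eif1b*, *Eif5a*, *Eif5a2*, *Eef2*, *Eef2k* and *Eef1aknmt*. The matches of 6 core factors are shown 5′ to 3′ on the strand of the gene, with the palindrome in capitals. *Eif4e* is shown at both of its matches, chr3:138527031-138527054 and chr3:138527195-138527218 on the plus strand. The others lie at chr11:69672598-69672621 (*Eif4a1*, minus strand), chr5:134639491-134639514 (*Eif4h*, minus), chr19:60790657-60790680 (*Eif3a*, minus, 23 bases into the transcript), chr7:108934338-108934361 (*Eif3f*, plus) and chr10:81176579-81176602 (*Eef2*, plus).
Eif4e, distal: gccagcgacCACGTGatcactttt
Eif4e, proximal: cacgtccgtCACGTGggcaggagc
Eif4a1: tcgcctccgCACGTGtaaaggtgc
Eif4h: ccgccgcacCACGTGggccgcaga
Eif3a: cgagggaatCACGTGgttccttcc
Eif3f: gatatgattCACGTGgtataaatt
Eef2: cggcgccgtCACGTGacgcaccca

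*Myc*, which encodes a factor that binds this palindrome, had log2 signals of 7.43, 6.84 and 6.87 in mutants and of 8.62, 8.18 and 8.36 in controls. The groups did not overlap (log2 fold change of -1.34, standard error 0.19, limma adjusted p = 0.352), a 2.53-fold higher signal in controls that missed the adjusted threshold. The 12 factors with the palindrome had log2 fold changes between -0.12 and 0.22 with a median of 0.07, and the 34 without it had a median of 0.02. Mutants lay all below controls for 0 of the 12, where 3.7% of all genes had that order, so the count by itself says little about so few genes. A match of letters is a description of the promoter and does not show that a protein binds there.

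**Figure D5:**
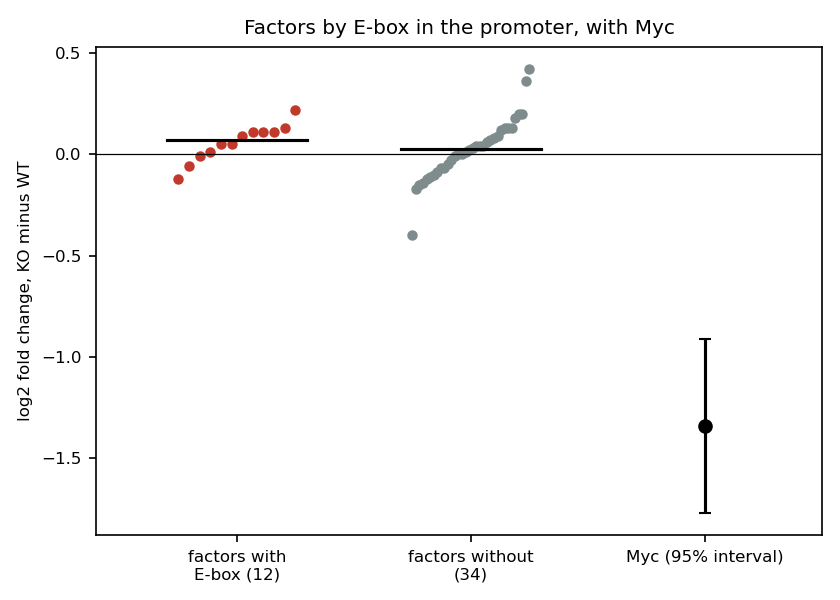
Log2 fold change (mutant minus control, vertical axis) of the 12 factors whose promoter holds the E-box palindrome, of the 34 factors with a promoter that lacks it, and of *Myc* with its 95% interval; black lines are medians. The 2 groups of factors have medians of 0.07 and 0.02, while *Myc* lies at -1.34.

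A pyrimidine stretch at the start of the transcript is the other feature known for mRNAs of the translation machinery, whose translation follows mTORC1. An annotated start with C followed by at least 4 pyrimidines was found in 1 of 61 promoters (1.64%), that of *Eif3f*, against 2.51% of all promoters. The match had to begin at the exact annotated base. A stretch beginning elsewhere was not counted, so a low share does not show that such starts are absent. A C followed by at least 6 pyrimidines within 20 bases of the start on the strand of the gene was found in 16 of 61 (26.2%), against 18.7% of all promoters. These belonged to 14 genes, whose median log2 fold change was 0.05, against 0.04 for the 32 without. The stretches of 4 of these are shown with the pyrimidines in capitals, from chr7:108934405-108934434 (*Eif3f*, plus strand), chr9:78481705-78481734 (*Eef1a1*, minus), chr2:105017018-105017047 (*Eif3m*, minus) and chr16:20498798-20498827 (*Eif2b5*, plus). Counted from the annotated start, they began at -4 (*Eif3f*), -5 (*Eef1a1*), -20 (*Eif3m*) and -15 (*Eif2b5*). The *Eif3m* stretch ended before that start and so lay outside the annotated transcript. Whether any of the 4 stretches begins an mRNA in liver was not tested.
Eif3f: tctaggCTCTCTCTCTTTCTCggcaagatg
Eef1a1: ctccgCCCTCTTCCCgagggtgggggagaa
Eif3m: CTCTCTTTTCCggtcggcgtgtttctggat
Eif2b5: cattCCTTCCTCTTTCTCTCCCTgcaacta

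Other genes of translation were compared from a list of termination, poly(A)-binding, signalling and mitochondrial factors. Of 36 measured, 0 passed adjustment by limma, 1 was higher at an unadjusted p under 0.05 (against 1.52% of all genes higher), and their median log2 fold change was 0.071. That gene was *Eefsec*, the elongation factor for selenocysteine, with 7.27, 7.28 and 7.22 in mutants and 6.97, 6.88 and 7.13 in controls (0.27, standard error 0.12, limma unadjusted p = 0.0475). Its difference was 0.21 to 0.33 when 1 mouse was left out. *Nck1*, an adaptor that can bind eIF2 beta, had 7.83, 7.74 and 8.11 against 7.68, 7.68 and 7.26 (0.35, standard error 0.16, limma unadjusted p = 0.0545). Without the low control B302 it was 0.21 (limma unadjusted p = 0.181). Within the two-hundreds it was 0.15, and within the three-hundreds 0.67. *Mtif3*, a mitochondrial initiation factor, had 7.73, 7.57 and 7.53 against 7.43, 7.46 and 7.35 (0.19, standard error 0.11, limma unadjusted p = 0.123). *Paip2*, an inhibitor of poly(A)-binding protein, had 9.17, 9.23 and 9.20 against 9.11, 9.14 and 9.12 (0.08, standard error 0.1, limma unadjusted p = 0.478). In these 4 of 36 genes every mutant lay above every control, against 3.46% of all genes. Mutants lay all below controls for 0 of 36, against 3.7%. Groups were thus apart for 4 of 36 in either direction, against 7.16% of all genes, a count of few genes that was not tested. *Paip2* was named after its values were seen. The others named by the same rule were *Mknk1* (0.20), *Hbs1l* (0.21), *Gspt1* (0.18), *Paip1* (0.21) and *Mtrf1l* (-0.31), whose groups overlapped.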

How the data were processed

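Liver RNA of 3 mutant and 3 control mice was hybridized to Affymetrix Mouse Gene arrays, 1 per mouse. The deposited values are log2 signals that the authors made with RMA (background correction, normalization between arrays and summary of probes), and the labels also name Partek; the sources used here give no versions. They were used as deposited, with no filter on intensity. The number of arrays limits the precision.

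Of 35556 probe sets, 21789 had 1 gene symbol in an annotation of an earlier array generation than the Mouse Gene 2.0 ST named in the methods, 1621 had several and 12146 none. Symbols were updated by gene identifier (21698 found), and the brightest probe set of a gene was kept, which gave 19938 genes. The 58 factors were covered by 68 probe sets. *Eif1*, *Eif2s1*, *Eif3g*, *Eif3j1*, *Eif3j2*, *Eif4g1*, *Eif4ebp3*, *Eef1g* and *Eef1akmt4* had no probe set with that name alone. The annotation does not say which copy of a gene a probe set was designed on, so signals of near-identical copies (*Eif1a* and *Eif1ax*, *Eif4a3* and *Eif4a3l1*) and of genes with several probe sets (*Eif4e*, *Eif5a*, *Eif4a1*, *Eif3m*, *Eif2s2*) are uncertain.

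Groups were compared with limma 3.58.1 in R 4.3.3 (lmFit and eBayes, two-sided, no covariate, Benjamini-Hochberg over all genes, threshold 0.05), and the exact permutation test was added for single genes. The procedure was tested on simulated data. Titles name separate mice. The members and lists were chosen with earlier results of these data known. Named with values were factors at an unadjusted p under 0.05, the 3 with the smallest p in each role, those the study names as phosphoproteins, those with probe sets differing by over 0.3, and the 2 smallest p in each list of other translation genes; the remaining genes (*Eif2ak3*, *Eif2s2*, *Eif4a1*, *Eif4a2*, *Eef1a1*, *Eef1b2*, *Eef2*, *Eef2k*, *Eif4a3l1*, *Myc*) were named after their values were seen. Alternatives were quantile normalization, median centring, leaving out dim genes, the mean of probe sets, limma with array weights, limma with a trend on intensity and robust variances, the methods' t-test (which is not tied there to the arrays), the series of mouse numbers as a block, leaving out each mouse and, chosen after seeing the data, leaving out B253 and B256 together or setting them as a block. Promoter sequences are from RefSeq (GRCm38.p6).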

Additional observations from a re-analysis of the deposited data

How the results depend on the processing

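No paired analysis was possible because the labels give no replicate numbers shared by the groups. The translation factors had 0 adjusted calls by limma under every alternative run, and by the methods' t-test. Their median log2 fold change was 0.005 (without B253) to 0.109 (without B256) when 1 mouse was left out. At an unadjusted p under 0.05, the main count of 1 factor became 0 with the methods' t-test, 3 with the series of mouse numbers as a block (*Eef1akmt1*, *Eif2ak4* and *Eif2b1*; 5.02% of all genes) and 3 without both B253 and B256; leaving out 1 mouse gave 1 to 4, with 4 without B256. *Eif2ak4* lost that threshold without B253, B256 or B304 and without both B253 and B256. Over all genes, 605 passed at that threshold, 1001 with the series as a block and 388 to 866 when 1 mouse was left out, the lowest without B304 and the highest without B256. Adjusted calls were 0 with the methods' t-test, 0 without both B253 and B256, 2 with these mice as a block and 0 to 1 when 1 mouse was left out. *Stk11* kept its direction but lost its call with the methods' t-test (-1.64), without both B253 and B256 (-1.60) and without any 1 mouse except B302 (-1.71 to -1.57 over all 6). Leaving out mice also left fewer mice in the comparison. The causes of these changes were not tested.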
